A study of Mus musculus with 12 samples.

Results

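The transcripts described here encode the machinery that copies DNA in S phase of the cell cycle, with the enzymes that supply its nucleotides, cyclin E and the chromatin assembly factor. The list names 39 genes, and members were found by gene symbol among the probe sets of an Affymetrix mouse array. That rule reads no measured value, although the list itself was chosen with earlier results of these data known. Of these 39, 38 had a probe set assigned to 1 gene, and 37 passed the filter on low signals among 13628 genes tested. Tyms, the thymidylate synthase, did not pass it: its 4 probe sets read 1.2 to 50.4 over all arrays. Chaf1a, the large subunit of the chromatin assembly factor, was not analysed here.

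RNA came from microdissected olfactory epithelium of wild-type male C57BL/6J mice, 6 weeks old, 48 h after removal of both olfactory bulbs (OBX) or a sham operation. Before and after surgery, mice received liposomes holding clodronate (Lip-C), a drug that kills the phagocytes that take it up and was given here to deplete macrophages and blood monocytes, or empty liposomes (Lip-O). Both kinds went in by nose (50 µl a day for 3 days, with surgery on day 2) and by tail vein (200 µl), so mice of all 4 groups (Lip-O sham, Lip-C sham, Lip-O OBX and Lip-C OBX) carried liposomes, and nasal and blood phagocytes were exposed together. Each group had 3 arrays, which the titles call biological replicates. Pooling of mice on an array is neither stated nor excluded by the labels, and p-values therefore measure only the spread between these samples.

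Bulb removal severs the axons of the olfactory sensory neurons, which then die and are replaced by the division of basal cells in the epithelium. A dividing cell first loads the MCM helicase on replication origins with the help of ORC, Cdc6 and Cdt1. Cdc45 and the GINS complex then switch the helicase on, primase and polymerase alpha start each strand, and the clamp Pcna, set in place by the Rfc complex, holds the polymerases that extend it. Many of these genes are textbook targets of the E2F transcription factors.

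Promoter sequence from RefSeq (GRCm38.p6, 250 bases before to 50 after the start site) was found for 28 of the 37 tested members. An 8-base E2F motif was searched on both strands as TTTCCCGC, TTTCGCGC, TTTGCCGC or TTTGGCGC, counting overlapping matches. It was present in 11 of the 28 (39.3%), in 4.5% of 10966 tested genes with a promoter and in 2.6% of all 27025 genes with one. The CCAAT box (CCAAT) was present in 60.7% of these members and 42.4% of tested genes, and the GC box (GGGCGG) in 71.4% and 66.3%. A match is a description of the letters and not a bound site. Of the 28 members, 17 had no match, among them Orc6, Mcm2, Rfc1, Pola2 and Fen1. For the 11 genes with one, the 30 bases around the most upstream match are shown 5′ to 3′ on the gene's strand. They show the matched letters in promoters of some origin, helicase, clamp loader, polymerase and ligase genes. Capitals mark every match within the window.
Orc1, chr4:108579416-108579445, plus strand: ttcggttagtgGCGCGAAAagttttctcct
Cdc6, chr11:98908002-98908031, plus strand: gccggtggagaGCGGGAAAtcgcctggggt
Cdt1, chr8:122568035-122568064, plus strand: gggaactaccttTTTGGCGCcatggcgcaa
Mcm3, chr1:20820275-20820304, minus strand: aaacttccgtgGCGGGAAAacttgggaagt
Mcm5, chr8:75109345-75109374, plus strand: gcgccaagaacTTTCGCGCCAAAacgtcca
Mcm6, chr1:128359797-128359826, minus strand: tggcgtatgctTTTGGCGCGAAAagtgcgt
Mcm7, chr5:138172030-138172059, minus strand: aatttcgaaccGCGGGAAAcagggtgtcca
Rfc3, chr5:151651200-151651229, minus strand: acgtcgcacgcTTTCGCGCtcGCGGGAAAa
Pola1, chrX:93632275-93632304, minus strand: gtcatcacaggGCGCCAAAtgcactcccgc
Pold1, chr7:44548766-44548795, minus strand: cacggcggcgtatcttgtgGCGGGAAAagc
Lig1, chr7:13278841-13278870, plus strand: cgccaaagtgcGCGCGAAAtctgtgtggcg
In Mcm5 and Mcm6 a pair of matches on opposite strands overlapped, and in Rfc3 a pair lay side by side across the start site.

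After OBX most members had a higher mean, mostly by little, and unevenly between arrays. The median member differed by 0.17 on the log2 scale after OBX in Lip-O mice and by 0.28 in Lip-C mice, against 0.05 and 0.04 over all genes tested. When single arrays were left out, the median with Lip-O ran from 0.07 (without Lip-O sham replicate 1) to 0.28 (without Lip-O sham replicate 2) and was 0.11 without Lip-O OBX replicate 2. With Lip-C it ran from 0.19 (without Lip-C OBX replicate 2) to 0.35 (without Lip-C OBX replicate 3). In each of the 2 comparisons 29 of 37 members had a higher mean after OBX. In bulk tissue, more cells of a type and more RNA per cell cannot be told apart. The 2 comparisons share no array, but the fit pools the spread of each gene over all 4 groups, and each was adjusted over all 13628 genes with limma and Benjamini-Hochberg.

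Each array was also described by the median deviation of the 37 members from their own means over the 12 arrays. This was -0.19, 0.16 and 0.02 on the 3 Lip-O sham arrays, -0.17, -0.15 and -0.22 on the Lip-C sham arrays, 0.03, 0.31 and 0.03 on those of Lip-O OBX mice and 0.10, 0.23 and -0.03 on the Lip-C OBX arrays. The 3 Lip-C sham arrays lay together at the low end, whereas the Lip-O sham arrays were spread so widely that replicate 2 lay above 2 of the 3 Lip-O OBX arrays. Lip-O OBX replicate 2 held the highest signal of all 12 arrays for 19 of the 37 members, and Lip-O sham replicate 1 held the lowest for 9. The members varied more between replicates than other genes, with a median standard deviation within groups of 0.227 on the log2 scale against 0.156 over all genes. It ran from 0.064 for the clamp loader subunit Rfc2 to 0.450 for the ribonucleotide reductase subunit Rrm2.

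**Figure D1:**
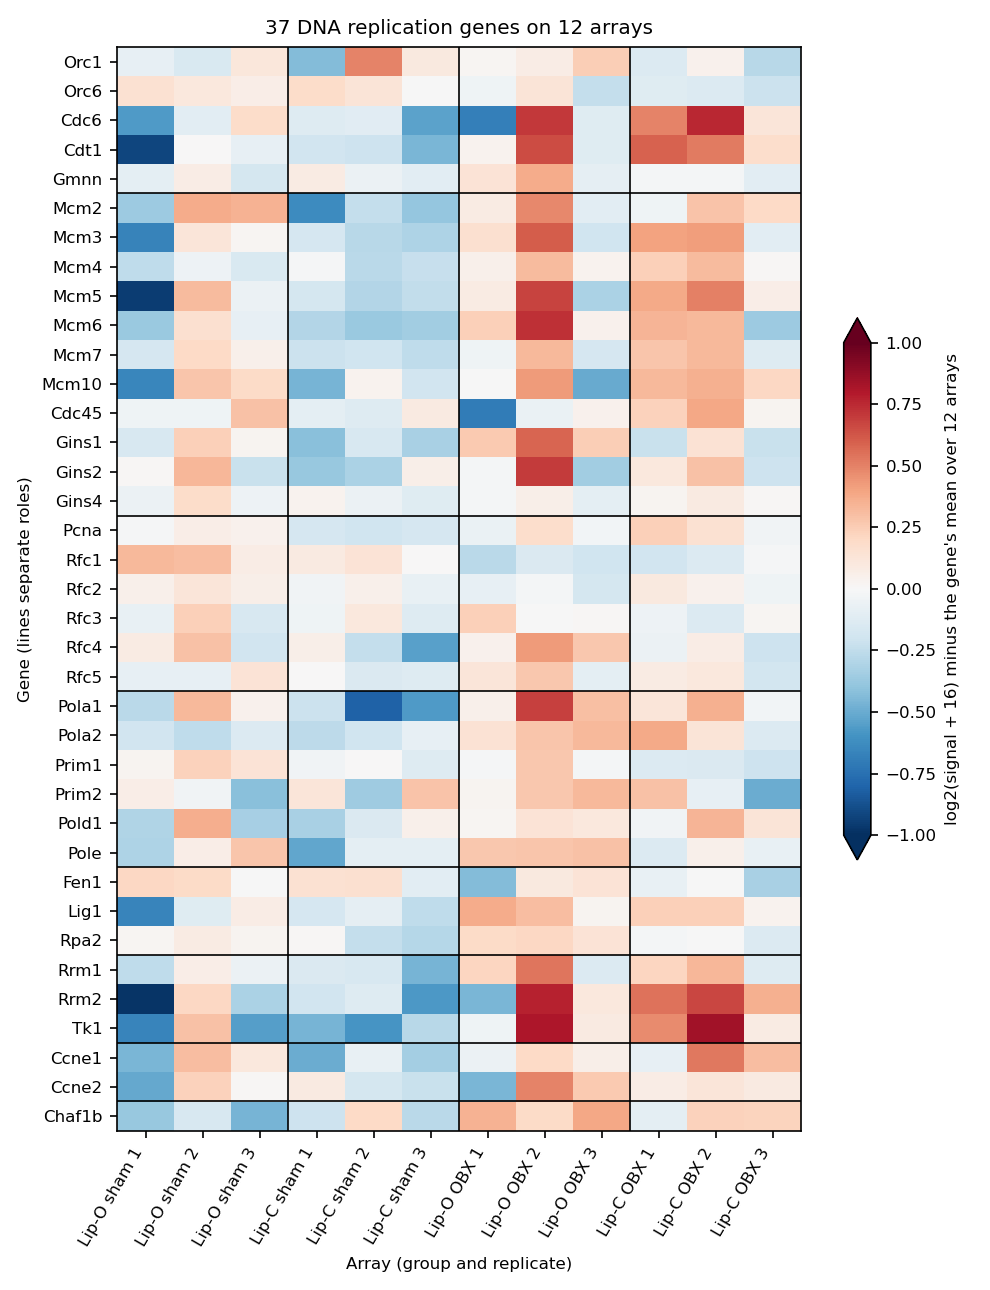
Deviation of each of 37 DNA replication genes (rows, ordered by role) from its mean over 12 arrays, in log2(signal + 16), with arrays in columns and colours saturating beyond 1. Blue fills most of the Lip-C sham columns, and the darkest red column is Lip-O OBX replicate 2, the highest array for 19 genes.

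Over both liposome treatments together, OBX raised 8 members and lowered 2, with 32.7% of all genes called (19.2% higher and 13.5% lower). The count of 10 among 37 is no larger a share than in the background. The 8 raised genes were Pola2, Chaf1b, Mcm4, Tk1, Lig1, Cdt1, Pola1 and Rrm2, and the 2 lowered genes were Rfc1 and Orc6. The median member differed by 0.23 against 0.05 over all genes, and 30 of 37 differences were positive. Within treatments, OBX raised Chaf1b and Pola2 and lowered Rfc1 in Lip-O mice, 3 of 37 members where 19.6% of all genes were called (10.7% higher and 8.89% lower). In Lip-C mice it raised Pcna and Pola1, 2 of 37 members where 19.2% of all genes were called (10.3% higher and 8.86% lower). Groups that did not overlap were found in Lip-O mice for 5 members higher after OBX (Mcm4, Gins1, Pola2, Rpa2 and Chaf1b) and 2 lower (Rfc1 and Rfc2), against 37.7% of all genes in either direction. In Lip-C mice they were found for 14 members higher and 3 lower (Orc6, Rfc1 and Prim1), against 40.2% of all genes in either direction. These shares of all genes were not split by direction, so the higher and lower counts have no background of their own. The 14 were Cdc6, Cdt1, Mcm2, Mcm3, Mcm4, Mcm5, Mcm7, Mcm10, Pcna, Pola1, Lig1, Rrm1, Rrm2 and Tk1. Each gene was taken by its brightest kept probe set, and dimmer probe sets did not always show the same separation or direction.

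**Figure D2:**
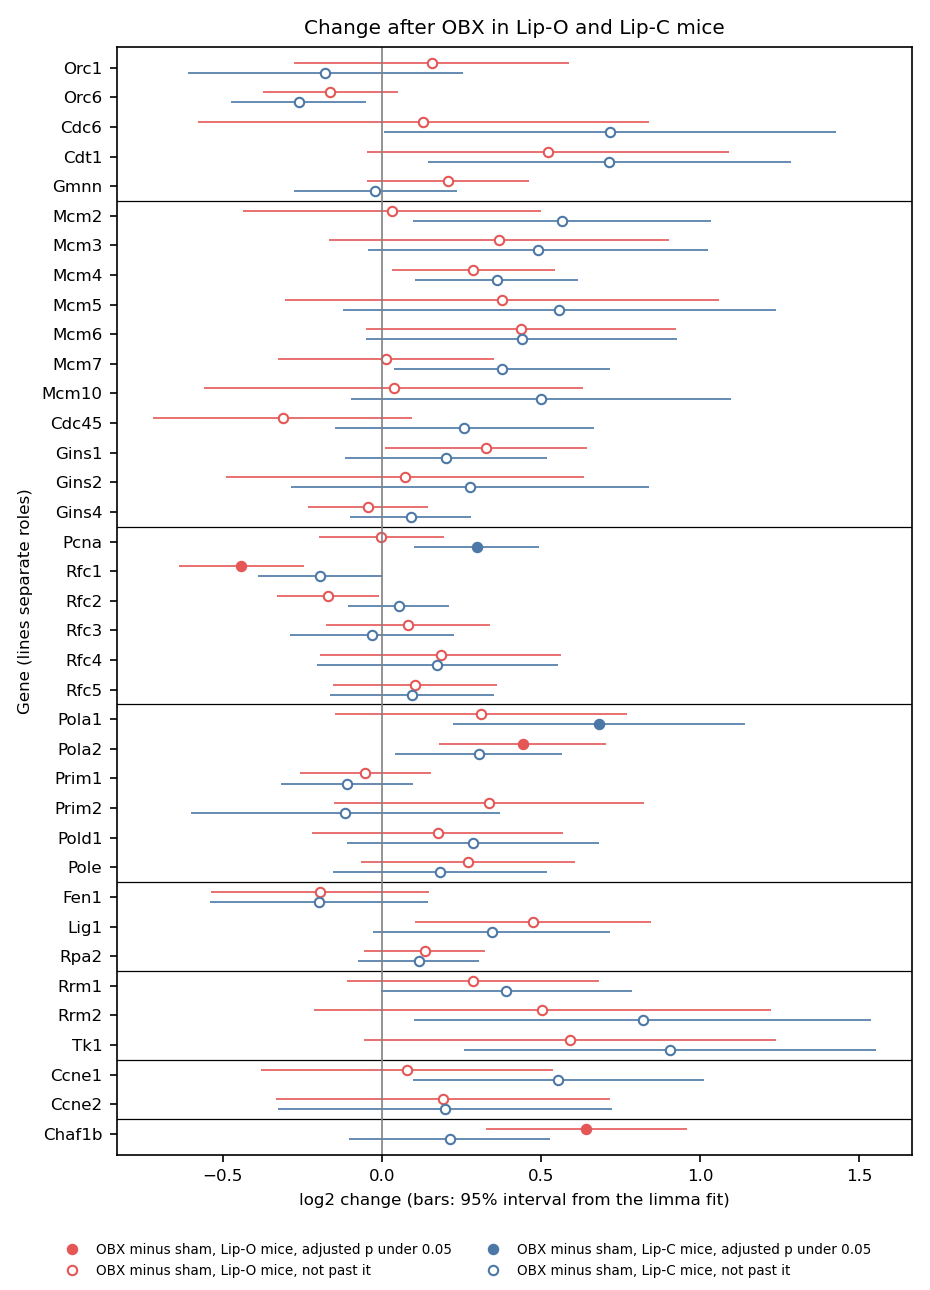
log2 change after OBX (x axis) of 37 DNA replication genes (y axis, by role) in Lip-O mice (red) and Lip-C mice (blue), with 95% intervals from limma and filled points for genes past an adjusted p of 0.05. Rfc1, Pola2 and Chaf1b are filled in Lip-O mice and Pcna and Pola1 in Lip-C mice, and 29 of 37 points lie right of 0 in each.

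Of the 5 origin licensing genes, OBX raised 1 and lowered 1 over both treatments, beside 19.2% of all genes higher and 13.5% lower. Signals below are the deposited intensity on a linear scale, with the 3 arrays of a group in the order of replicates 1, 2 and 3, and a range after a probe set covers all 12 arrays. Cdt1, which brings the MCM helicase to origins (probe set 1424143_a_at), read 241, 472 and 444 in Lip-O sham, 410.2, 407 and 339 in Lip-C sham, 484, 749.8 and 431 in Lip-O OBX and 717, 684 and 535 in Lip-C OBX mice. Every Lip-C OBX array was above all 6 sham arrays, while in Lip-O mice the groups overlapped. Over both treatments Cdt1 rose by 0.62 ± 0.18 (SE, adjusted p = 0.0255), and its other kept probe set gave 0.33 (adjusted p = 0.0929). Orc6, a subunit of the origin recognition complex (1417037_at), read 795, 772 and 749 in Lip-O sham, 814, 783 and 712 in Lip-C sham, 692, 782 and 602 in Lip-O OBX and 656, 649 and 612 in Lip-C OBX mice. It fell by 0.21 ± 0.07 over both treatments (adjusted p = 0.0352), with no overlap in Lip-C mice and 1 Lip-O OBX array within the sham range.

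Gmnn, or geminin, binds Cdt1 and prevents a repeated round of replication. Its probe set (1417506_at) read 704, 792 and 666 in Lip-O sham, 797, 722 and 700.1 in Lip-C sham, 829.5, 981 and 708 in Lip-O OBX and 744, 743 and 697 in Lip-C OBX mice. The groups overlapped in both treatments, and the difference over both was 0.09. The remaining licensing genes were Orc1 (1443172_at, 90.2 to 186) and Cdc6, the helicase loader (1417019_a_at, 37.8 to 129.9). Cdc6 differed by 0.13 after OBX in Lip-O mice and by 0.72 in Lip-C mice, and Orc1 by 0.16 and -0.18, none past the threshold. The Lip-C sham signals of Cdc6 (63, 63.8 and 43.7) lay below the filter level, whose lowest value on any array was 65.3. Its difference in Lip-C mice therefore starts from signals near the floor.

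Of 11 helicase genes, 10 had a higher mean after OBX over both treatments and 1 passed, where 32.7% of all genes passed. Mcm4, a subunit of the MCM ring (1416214_at), read 617, 713 and 665 in Lip-O sham, 733, 610.0 and 627 in Lip-C sham, 765, 926 and 758 in Lip-O OBX and 877, 925 and 743 in Lip-C OBX mice. All 6 OBX arrays lay above all 6 sham arrays, and the rise was 0.32 ± 0.08 (adjusted p = 0.0132). Its next brightest probe set differed by 0.18 (adjusted p = 0.195). Within Lip-C mice Mcm4 differed by 0.36 ± 0.12 (adjusted p = 0.052), the nearest member below the threshold.

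Mcm7, another subunit of the ring (1438320_s_at), read 1495, 1941 and 1743 in Lip-O sham, 1448, 1466 and 1415 in Lip-C sham, 1639, 2112 and 1501 in Lip-O OBX and 2044, 2112 and 1539.7 in Lip-C OBX mice. In Lip-C mice all OBX arrays were above all sham arrays, and in Lip-O mice the ranges overlapped almost wholly, with differences of 0.38 and 0.01. Mcm2 (1434079_s_at) read 366, 618 and 609 in Lip-O sham, 301, 399 and 358 in Lip-C sham, 503, 667 and 439 in Lip-O OBX and 459.5, 579.8 and 546 in Lip-C OBX mice, and differed after OBX by 0.03 with Lip-O and by 0.56 with Lip-C. Lip-O sham replicates 2 and 3 exceeded 5 of the 6 OBX arrays. The dimmer kept probe set of Mcm2 had means of 300 in Lip-O sham and 413 in Lip-O OBX mice, with overlap. Its means were 188 in Lip-C sham and 380 in Lip-C OBX mice, without overlap.

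The other ring subunits were Mcm3 (1420028_s_at, 176 to 448), Mcm5 (1436808_x_at, 235 to 759.5) and Mcm6 (1416251_at, 431 to 948), with Mcm10, a factor that helps activate the helicase (1433408_a_at, 67.5 to 161). Their differences after OBX ran from 0.04 (Mcm10) to 0.44 (Mcm6) in Lip-O mice and from 0.44 (Mcm6) to 0.56 (Mcm5) in Lip-C mice. None of them passed.

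The factors that switch the helicase on had no called change. Gins1 (1452598_at) read 167, 226 and 192 in Lip-O sham, 137, 167 and 148 in Lip-C sham, 229.9, 290.3 and 226 in Lip-O OBX and 159, 210.5 and 159 in Lip-C OBX mice. In Lip-O mice its OBX arrays lay just above its sham arrays (0.33 ± 0.14), and in Lip-C mice the groups overlapped. Cdc45 (1416575_at) read 189, 189 and 242 in Lip-O sham, 181, 177 and 209 in Lip-C sham, 114, 185 and 201 in Lip-O OBX and 232, 259 and 198 in Lip-C OBX mice, with Lip-O OBX replicate 1 far below the other 11 arrays. Gins2 (1428713_s_at, 71.2 to 169) and Gins4 (1417913_at, 788 to 979.6) differed by at most 0.28 in either treatment.

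The clamp gene Pcna rose after OBX in Lip-C mice, and the gene of its loader's large subunit fell in Lip-O mice. Pcna (1417947_at) read 5282, 5560.0 and 5484 in Lip-O sham, 4746, 4628 and 4730.5 in Lip-C sham, 5090.2, 6023 and 5223 in Lip-O OBX and 6275, 5918 and 5203 in Lip-C OBX mice. The 3 Lip-C sham arrays were the lowest of the 12, and in Lip-C mice Pcna rose by 0.30 ± 0.09 after OBX (adjusted p = 0.0411). In Lip-O mice the group means were 5442 ± 144 and 5445 ± 504 (SD, n = 3), with overlap.

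Rfc1, the large subunit of the clamp loader (1449050_at), read 1135, 1121 and 950.5 in Lip-O sham, 962, 994 and 906 in Lip-C sham, 743, 814 and 785 in Lip-O OBX and 788, 816 and 894 in Lip-C OBX mice. Each OBX array lay below each sham array. Rfc1 fell by 0.44 ± 0.09 in Lip-O mice (adjusted p = 0.00787) and by 0.32 ± 0.06 over both treatments (adjusted p = 0.00391). Its 3 kept probe sets gave -0.32, -0.25 and -0.16 over both treatments, while in Lip-O mice the next brightest probe set gave -0.19 (adjusted p = 0.133).

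The small subunits of the loader did not follow Rfc1 past the threshold. Rfc2 (1417503_at) read 1098, 1150.4 and 1105 in Lip-O sham, 1031, 1096 and 1007 in Lip-C sham, 999.9, 1044 and 935 in Lip-O OBX and 1133, 1092 and 1027 in Lip-C OBX mice, lower after OBX without overlap in Lip-O mice (-0.17 ± 0.07). Rfc3 (1423700_at, 323 to 432), Rfc4 (1424321_at, 337 to 674) and Rfc5 (1452917_at, 483 to 667) differed by 0.08 to 0.18 in Lip-O mice and by -0.03 to 0.17 in Lip-C mice.

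Of the 6 polymerase and primase genes, 2 were called over both treatments, a share (33.3%) near the 32.7% of all genes called. They were the measured subunits of polymerase alpha, Pola1 and Pola2, both higher. Within treatments, Pola1 passed in Lip-C mice only and Pola2 in Lip-O mice only. Pola1, the catalytic subunit (1419397_at), read 240.3, 372 and 303 in Lip-O sham, 249.9, 160.4 and 192 in Lip-C sham, 304, 479.6 and 364 in Lip-O OBX and 320.3, 379.9 and 287 in Lip-C OBX mice. In Lip-C mice it rose by 0.68 ± 0.21 (adjusted p = 0.0434) from sham arrays that were, apart from Lip-C sham replicate 1, below all other arrays, and over both treatments by 0.50 ± 0.15 (adjusted p = 0.0259). Pola2, its regulatory subunit (1448369_at), read 172, 163 and 178 in Lip-O sham, 162, 170.4 and 186 in Lip-C sham, 220.4, 243 and 251 in Lip-O OBX and 262, 218 and 178 in Lip-C OBX mice. It rose by 0.44 ± 0.12 in Lip-O mice (adjusted p = 0.0263) and by 0.37 ± 0.08 over both (adjusted p = 0.00744), with Lip-C OBX replicate 3 inside the sham range.

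Prim1, the catalytic subunit of primase (1418369_at), read 768, 886 and 829.5 in Lip-O sham, 733, 756 and 685 in Lip-C sham, 746, 911 and 743 in Lip-O OBX and 681, 679 and 649.5 in Lip-C OBX mice. After OBX in Lip-C mice its 3 arrays were the lowest of all 12, although the difference of -0.11 ± 0.09 did not pass. The dimmer kept probe set of Prim1 went the other way, with means of 411 in Lip-C sham and 517 in Lip-C OBX mice, and overlap. Prim2, the other primase subunit (1418035_a_at, 146 to 270.2), Pold1 of polymerase delta (1456055_x_at, 215 to 358) and Pole of polymerase epsilon (1448650_a_at, 107 to 199) differed by 0.34, 0.17 and 0.27 in Lip-O mice and by -0.12, 0.29 and 0.18 in Lip-C mice. None of these 3 passed.

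Among genes that finish and protect new strands, Lig1, which seals Okazaki fragments (1416641_at), read 266, 394 and 454 in Lip-O sham, 381, 404 and 358 in Lip-C sham, 562, 536 and 440.0 in Lip-O OBX and 512, 512 and 442 in Lip-C OBX mice. It rose by 0.41 ± 0.12 over both treatments (adjusted p = 0.024), with Lip-O sham replicate 3 above 1 of the Lip-O OBX arrays. Fen1, the flap nuclease that trims these fragments (1436454_x_at), read 1252, 1242 and 1080.3 in Lip-O sham, 1206, 1212 and 1005 in Lip-C sham, 800.4, 1163 and 1194 in Lip-O OBX and 1031, 1083 and 865 in Lip-C OBX mice. The groups overlapped, and the differences were -0.19 and -0.20. The dimmer kept probe set of Fen1 had higher means after OBX instead. They were 416 and 488 in Lip-O sham and Lip-O OBX mice, and 402 and 428 in Lip-C sham and Lip-C OBX mice. Rpa2, a subunit of the protein that coats single strands (1454011_a_at), read 378, 397 and 381 in Lip-O sham, 377, 313 and 304 in Lip-C sham, 428, 433 and 413 in Lip-O OBX and 368, 371 and 337 in Lip-C OBX mice. Its Lip-O OBX arrays were the 3 highest of the 12, and the difference from Lip-O sham was 0.13 ± 0.09.

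The genes for nucleotide supply had the highest median of any role, 0.66 over both treatments. Tk1, the thymidine kinase of dividing cells (1416258_at), read 85.7, 181 and 93.7 in Lip-O sham, 100.5, 90.7 and 117 in Lip-C sham, 139.7, 266 and 155 in Lip-O OBX and 206, 271 and 154 in Lip-C OBX mice. It rose by 0.75 ± 0.21 over both treatments (adjusted p = 0.0196), although Lip-O sham replicate 2 exceeded 2 of the Lip-O OBX arrays and 1 of the Lip-C OBX arrays. Rrm2, the S phase subunit of ribonucleotide reductase (1434437_x_at), read 431, 997 and 690.4 in Lip-O sham, 753, 791 and 574 in Lip-C sham, 627, 1484 and 929 in Lip-O OBX and 1264, 1385 and 1108 in Lip-C OBX mice. It rose by 0.66 ± 0.23 (adjusted p = 0.0479), with Lip-O OBX replicate 1 below the mean of the Lip-O sham arrays. Rrm1, the large subunit of the same enzyme (1415878_at, 495 to 1002), differed by 0.29 with Lip-O and 0.39 with Lip-C. The dimmer kept probe set of Rrm1 had means of 746 in Lip-O sham and 703 in Lip-O OBX mice, with overlap. Its means were 461 in Lip-C sham and 625 in Lip-C OBX mice, without overlap.

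Cyclin E, which drives entry into S phase, was represented by Ccne1 (1416492_at, 62.4 to 143) and Ccne2 (1422535_at). Ccne2 read 93.9, 168 and 143 in Lip-O sham, 151, 123 and 119 in Lip-C sham, 98.5, 205 and 172 in Lip-O OBX and 149.6, 154 and 151 in Lip-C OBX mice, and Ccne1 and Ccne2 differed over both treatments by 0.32 and 0.19 without passing. Chaf1b, the middle subunit of the factor that places histones on new DNA (1423877_at), read 77.4, 92.6 and 71.9 in Lip-O sham, 89.1, 123 and 84.4 in Lip-C sham, 138, 123 and 142 in Lip-O OBX and 97.2, 127 and 126 in Lip-C OBX mice. It rose by 0.64 ± 0.14 in Lip-O mice (adjusted p = 0.0123) and by 0.43 ± 0.10 over both treatments (adjusted p = 0.00951). Every Lip-O OBX array lay above every Lip-O sham array, while Lip-C sham replicate 2 lay within the range of the Lip-C OBX arrays.

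**Figure D3:**
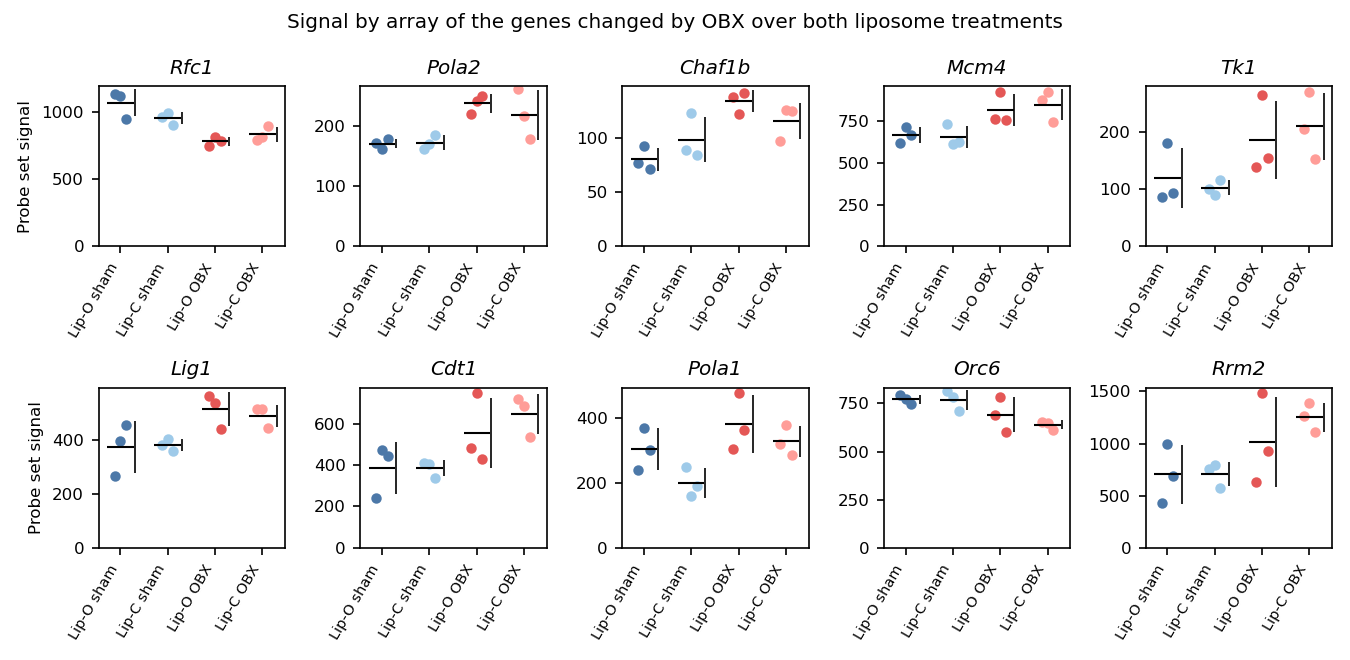
Probe set signal (y axis, linear, from 0) of the 10 genes that changed with OBX over both treatments, by group, with 1 point per array, a line at the mean of 3 arrays and a vertical bar of 1 SD. The OBX and sham arrays separate fully for Mcm4 and Rfc1, and the points of Tk1 and Rrm2 scatter widely in Lip-O mice.

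The counts of called members changed when single arrays were left out. The count of 10 genes changed over both treatments was 5 without Lip-C OBX replicate 2 and 6 without Lip-C sham replicate 3, replicate 2 of Lip-O OBX or replicate 1 of Lip-C OBX. The share of all genes called was 25.4% to 27.2% in these 4 fits, against 32.7% with all arrays. For OBX in Lip-C mice the count of 2 became 0 without Lip-O sham replicate 3, either of Lip-C sham replicates 2 and 3, or either of Lip-C OBX replicates 1 and 2, fits that called 6.15% to 17.2% of all genes. It became 4 without replicate 1 of Lip-O sham or replicate 2 of Lip-O OBX (18.6% and 18.2% of all genes), and 7 without Lip-C OBX replicate 3 (22.2% of all genes). Pola2, Chaf1b, Mcm4, Tk1 and Rfc1 over both treatments, and Rfc1 and Chaf1b in Lip-O mice, passed in all 12 fits that left out 1 array.

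The other calls were lost in some of these 12 fits. Rrm2 and Orc6 each lost the call in 10, with Rrm2 keeping it without replicate 2 of Lip-O sham or replicate 1 of Lip-O OBX and Orc6 without Lip-C sham replicate 3 or Lip-O OBX replicate 2. Cdt1 lost it in 4 (without Lip-C sham replicate 3, without replicate 2 of Lip-O OBX, or without replicate 1 or 2 of Lip-C OBX), and Lig1 in the same 4 and without Lip-O OBX replicate 1. Pola1 over both treatments lost it in 5, without Lip-O sham replicate 1, Lip-C sham replicates 2 or 3, replicate 2 of Lip-O OBX or replicate 2 of Lip-C OBX. Pola2 in Lip-O mice lost it in 5, without any 1 Lip-O sham array or Lip-O OBX replicates 2 or 3. In Lip-C mice Pcna lost it in 8, keeping it without any 1 Lip-O OBX array or without Lip-C OBX replicate 3. Pola1 lost it there in 6, without Lip-O sham replicate 3, Lip-C sham replicates 2 or 3, replicate 3 of Lip-O OBX, or replicates 1 or 2 of Lip-C OBX.

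Members with and without an E2F match were set side by side as a description. After OBX over both treatments the median difference was 0.42 for the 11 members with a match and 0.18 for the 17 without. Called genes numbered 3 of 11 with a match, all higher (Cdt1, Pola1 and Lig1), and 6 of 17 without, 4 higher and 2 lower, where 32.7% of all genes were called. All 11 with a match had a positive difference after OBX in Lip-O mice, as did 11 of 17 without. In Lip-C mice 9 of 11 with a match and 13 of 17 without had a positive difference. The groups of members were not compared by a test.

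The comparisons of Lip-C with Lip-O use the same arrays as those of OBX with sham, so an array that is low or high enters both. In sham mice, no member passed between Lip-C and Lip-O by its brightest kept probe set, where 2.10% of all genes (286) passed. That number of genes was 17 without Lip-C sham replicate 3, 19 without Lip-O sham replicate 3, 24 without Lip-O sham replicate 2 and 40 without Lip-C sham replicate 2. The limma fit gave 5 of 37 members an unadjusted p under 0.05, all lower in Lip-C mice, against 21.9% of all genes in either direction and 9.7% lower. The median member differed by -0.10 against 0.00 over all genes, and 29 of 37 differences were negative. The 3 members nearest to the threshold, none past it, were Pola1 (-0.57 ± 0.21, adjusted p = 0.151), Mcm2 (-0.54 ± 0.21, adjusted p = 0.174) and Rpa2 (-0.22 ± 0.09, adjusted p = 0.181). The groups did not overlap for 6 members, all lower with Lip-C (Mcm7, Gins1, Pcna, Rfc2, Prim1 and Rpa2), as did 13.5% of all genes in that direction. These results hold for the brightest kept probe sets only. The dimmer kept probe set of Rrm1 had means of 746 in Lip-O sham and 461 in Lip-C sham mice, without overlap. For Rfc1 the dimmest kept probe set was lower with Lip-C (means of 199 and 140), without overlap. The next brightest of Rfc1 was higher with Lip-C (853 and 933), also without overlap. The median difference of -0.10 became -0.03 without Lip-O sham replicate 2 and -0.23 without Lip-O sham replicate 1.

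After OBX, again no member passed between Lip-C and Lip-O mice, with 0.345% of all genes called, and 4 of 37 had an unadjusted p under 0.05 in limma, against 12.7% of all genes. Gins1 (-0.47 ± 0.14, adjusted p = 0.213), Rpa2 (-0.23 ± 0.09, adjusted p = 0.286) and Prim1 (-0.24 ± 0.09, adjusted p = 0.304) lay nearest to the threshold, and Cdc45 was the 1 member of the 4 with a higher mean in Lip-C mice (0.46). With the replicate number as a block, Gins1 passed, as given below. The groups did not overlap for 4 members, Gins1, Prim1, Pole and Rpa2, all lower with Lip-C, as did 7.81% of all genes in that direction. The median member differed by -0.05 against 0.01 over all genes. It became 0.10 without Lip-O OBX replicate 2 and 0.03 without Lip-C OBX replicate 3, so the sign of the median depended on these arrays.

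Over sham and OBX mice together, no member passed for Lip-C, with 1.59% of all genes called, and 6 of 37 members had an unadjusted p under 0.05 in limma, all lower, against 16.8% of all genes in either direction and 7.27% lower. Gins1 differed by -0.40 ± 0.10 (adjusted p = 0.0811), Rpa2 by -0.22 ± 0.06 (adjusted p = 0.0971) and Prim1 by -0.22 ± 0.07 (adjusted p = 0.134). For Rpa2 all 6 Lip-C arrays lay below all 6 Lip-O arrays, and it passed without Lip-C sham replicate 1 (adjusted p = 0.0432). The separation was narrow, with 376.6 on Lip-C sham replicate 1 and 378.3 on Lip-O sham replicate 1. The dimmer kept probe set of Rpa2 did not show it. There Lip-C sham replicate 1 (364.7) lay above every Lip-O sham array (337.1 to 357.7).

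The interaction asks whether OBX changed a gene by a different amount in Lip-C than in Lip-O mice. No member passed, 0% of all genes did, and 1 of 37 members, Pcna, had an unadjusted p under 0.05 in limma, against 17.6% of all genes. The genes called for the interaction numbered 155 without Lip-O OBX replicate 2, 85 with a filter at the 60th percentile and 66 with an intensity trend, with no member among them. Pcna differed by 0.30 ± 0.13 (adjusted p = 0.251, 95% interval 0.02 to 0.58), Cdc45 by 0.57 ± 0.26 (adjusted p = 0.287) and Rfc2 by 0.22 ± 0.10 (adjusted p = 0.288). The median over the members was 0.10, with 22 of 37 positive, and it was -0.02 without Lip-O sham replicate 2. The response of the replication genes to OBX was not shown to differ between Lip-C and Lip-O mice.

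Other genes of the cell cycle were taken from 4 further lists. Of 41 other genes of the replication machinery, OBX raised 10 and lowered 2 over both treatments, beside 19.2% of all genes higher and 13.5% lower. Dbf4, the regulatory subunit of the kinase that fires origins, rose by 0.56 ± 0.10 (adjusted p = 0.00299), and Topbp1, which helps load Cdc45, by 0.34. Mcmbp, which binds the MCM complex, rose by 0.20, and Tipin, which stabilises forks, fell by 0.20. Mcm9, a relative of the ring subunits that acts in DNA repair, fell by 0.45 ± 0.08 (adjusted p = 0.00219).

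Across the arrays Mcm9 read 640.5, 525 and 599 in Lip-O sham, 779, 965 and 901 in Lip-C sham, 621, 534 and 669 in Lip-O OBX and 437, 449 and 463 in Lip-C OBX mice. The 3 Lip-C sham arrays were the highest and the 3 Lip-C OBX arrays the lowest of the 12. Mcm9 rose by 0.57 ± 0.11 with Lip-C in sham mice (adjusted p = 0.0339) and fell by 0.94 ± 0.11 after OBX in Lip-C mice (adjusted p = 0.00445), while in Lip-O mice OBX gave 0.04 ± 0.11. Its interaction of -0.99 ± 0.16 did not pass (adjusted p = 0.0762).

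Of 29 regulators of the step from G1 to S phase, OBX raised 10 and lowered none over both treatments, with 32.7% of all genes called. They included Ccnd2, a D-type cyclin (0.48 ± 0.09), Rbl2, a relative of the retinoblastoma protein (0.31), E2f2 (0.75), the inhibitor Cdkn1c (0.42) and E2f3 (0.29). E2f1 differed by -0.41 ± 0.27 (adjusted p = 0.264), with 109, 110.3 and 129 in Lip-O sham, 168, 130.4 and 138 in Lip-C sham, 114, 121 and 79.2 in Lip-O OBX and 29.9, 130.2 and 137 in Lip-C OBX mice. Lip-C OBX replicate 1 stood far below the other 11 arrays for E2f1.

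Of 21 mitosis and G2/M genes, OBX raised 16 over both treatments, with a median of 0.60, where 19.2% of all genes rose. Ube2c (0.87 ± 0.19), the kinase Plk1 (0.85), the centromere histone Cenpa (0.55), cyclin Ccnb2 (0.69) and the topoisomerase Top2a (0.75) were among them. In Lip-C mice 8 of 21 rose, where 10.3% of all genes did. In Lip-O mice the 1 called gene, Cks2, fell by 0.45, where 8.89% of all genes fell. The proliferation marker Mki67 read 482, 1202 and 769 in Lip-O sham, 794, 704 and 580.3 in Lip-C sham, 981, 1719.6 and 1072 in Lip-O OBX and 1168, 1611 and 974 in Lip-C OBX mice, and rose by 0.74 ± 0.23 over both treatments (adjusted p = 0.0294). Mki67 was lowest on Lip-O sham replicate 1 and highest on Lip-O OBX replicate 2. In sham mice 0 of the 21 passed for Lip-C in limma, although all 21 had negative differences, with a median of -0.56 and 13 at an unadjusted p under 0.05 (9.7% of all genes in that direction).

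Of 11 DNA damage genes, 2 rose over both treatments, Gadd45a (0.45) and the checkpoint kinase Chek1 (0.34), where 19.2% of all genes rose. The p53 target Cdkn1a, which inhibits the S phase kinases and Pcna, differed by -0.19 ± 0.12 (adjusted p = 0.239).

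**Figure D4:**
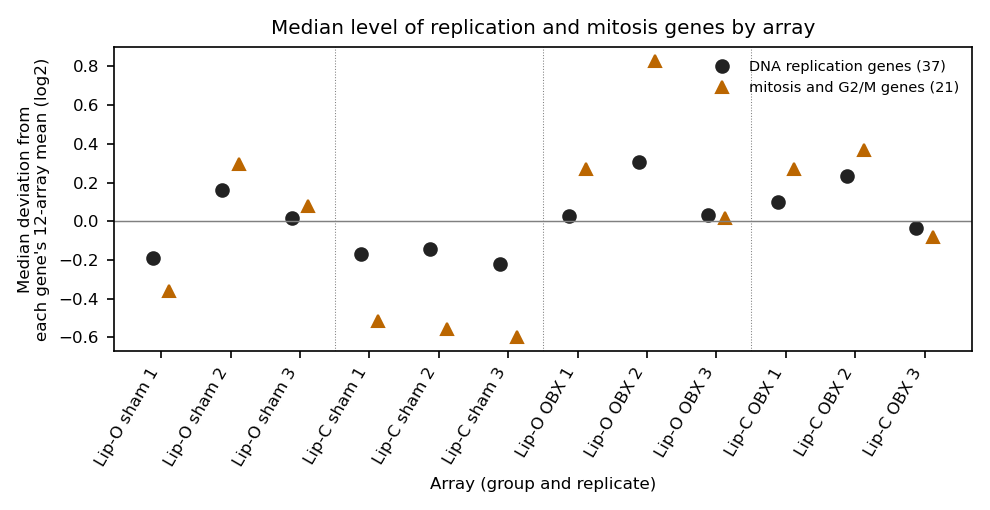
Median deviation (log2, y axis) of the 37 DNA replication genes (circles) and of 21 mitosis and G2/M genes (triangles) from each gene's mean over 12 arrays, by array. Both lists are highest on Lip-O OBX replicate 2, and all 3 Lip-C sham arrays lie below 0 for both.

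Markers of several cell types moved with the same comparisons, and their part in the changes of the replication genes was not tested. Beside the counts below, OBX raised 10.7% and lowered 8.89% of all genes with Lip-O. With Lip-C it raised 10.3% and lowered 8.86%. Between Lip-C and Lip-O, 2.10% of all genes were called in sham mice and 0.345% in OBX mice. Of 8 measured genes of olfactory neuronal precursors, which divide, OBX raised 1 with Lip-O and 2 with Lip-C, and Lip-C lowered 4 in sham and 3 in OBX mice. Their summed signal was 8527 to 9940 on the Lip-O sham, 6162 to 6851 on the Lip-C sham, 10155 to 12547 on the Lip-O OBX and 7137 to 9175 on the Lip-C OBX arrays. Neurog1, a proneural factor of these precursors, rose by 0.52 ± 0.15 after OBX in Lip-O mice (adjusted p = 0.032) and fell by 1.34 ± 0.15 with Lip-C in sham mice (adjusted p = 0.00612) and by 1.45 ± 0.15 in OBX mice (adjusted p = 0.00396).

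Of 9 macrophage genes, OBX raised 4 with Lip-O and 7 with Lip-C, and Lip-C lowered 2 in sham mice. The summed signals were 4854 to 6349, 3596 to 4222, 6945 to 11463 and 6195 to 8346 on the Lip-O sham, Lip-C sham, Lip-O OBX and Lip-C OBX arrays. Cd68 rose after OBX by 1.16 ± 0.25 with Lip-O and by 1.46 ± 0.25 with Lip-C (adjusted p = 0.0116 and 0.0069). Of 5 myeloid progenitor genes, whose cells also divide, Lip-C raised 3 in sham and 1 in OBX mice, with summed signals of 465 to 1716, 2882 to 6066, 756 to 1243 and 2680 to 5926 in the same order. Of 5 horizontal basal cell genes, OBX raised 2 with Lip-O and 3 with Lip-C, with sums of 2749 to 3602, 2350 to 3113, 4043 to 4189 and 3385 to 4475.

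Further lists moved in Lip-C mice. Of 6 bone and cartilage genes, 4 were lower with Lip-C in sham mice and 4 higher after OBX in Lip-C mice, with sums of 12510 to 15936, 2483 to 3238, 6193 to 14552 and 4536 to 11999 in the same order. Of 5 fibroblast genes, 4 rose after OBX in Lip-C mice, with sums of 27502 to 50148, 17353 to 22747, 26938 to 46405 and 29119 to 49089. Bglap of the bone list was not among the genes tested. Genes were left out for low signal or for want of a probe set assigned to 1 gene, and the reason was not looked up for each. Of 8 measured erythroid genes 1 rose after OBX in Lip-O mice, and Hba-a1, Hbb-b1 and Ahsp were not among the genes tested. Among lymphocyte genes, Cd79a, Cd3d, Cd3e, Cd3g and Cd4 were not tested either.

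The tissue showed its defining marker: Omp of mature olfactory neurons, from 6768.5 to 18213 on the 12 arrays, fell by 1.01 ± 0.17 after OBX in Lip-O mice (adjusted p = 0.00399) and differed by -0.34 ± 0.17 in Lip-C mice (adjusted p = 0.176). Of 6 measured genes of these neurons, which do not divide, OBX lowered 5 with Lip-O and 3 with Lip-C, with medians of -0.86 and -0.51. Their summed signal was 69601 to 80510 on the Lip-O sham, 75892 to 81044 on the Lip-C sham, 37558 to 60163 on the Lip-O OBX and 52732 to 64440 on the Lip-C OBX arrays. The part of this fall in the differences of the replication genes was not tested.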

How the data were processed

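Expression was measured on 12 one-colour Affymetrix arrays. The deposited table gives intensity per probe set, not log-transformed, and the authors had scaled each array to a 2% trimmed mean of 500. Per the labels, no summarising algorithm is named. The table held 45101 probe sets, 64 of them controls, and array medians without controls ran from 117.4 to 134.1. Values were taken as log2(signal + 16), which understates changes of dim genes. A probe set was kept (28986 were) where 3 or more arrays read above their own 40th percentile. By GEO's platform annotation, 34945 probe sets had 1 gene, 932 had several and 9160 had none, and 34741 of the former matched the reference gene table. Each gene was represented by its kept probe set with the highest mean, and levels of different probe sets were not compared. Of 83 member probe sets 65 were kept, 20 members had more than 1, and none of those opposed each other at an unadjusted p under 0.05.

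One model of the 4 group means was fitted over 13628 genes with limma 3.58.1 in R 4.3.3 (8 residual degrees of freedom), two-sided, with Benjamini-Hochberg adjustment over all genes and a threshold of 0.05. Fold changes are log2 differences ± SE. The script was tested on simulated data. The number of arrays limits precision: the median SE over genes was 0.124, and an exact permutation test of 3 against 3 arrays cannot go below p = 0.1, so genes were tested in the model alone. Members and gene lists were chosen with earlier results of these data known.

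Every member is named with its probe set. Those past the threshold in a comparison, or the nearest up to 3, are given with SE and adjusted p, and with the brightest member of each role by array. From the other lists at most 5 called genes are named for each comparison, with Mki67, Cdkn1a, E2f1, Neurog1, Omp and Cd68. Mcm9 is given by array because of its values, seen beforehand. Alternatives were other pseudocounts, filters, normalization, probe set rules, a replicate block, an intensity trend, fits of 2 groups and leaving out arrays. The next brightest probe set and leaving out both OBX arrays numbered 3 were chosen after seeing the data. Array coordinates are not given; promoter coordinates are RefSeq's on GRCm38.p6.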

Additional observations from a re-analysis of the deposited data

How the results depend on the processing

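No named member changed direction in the alternatives run, and the counts of 0 for Lip-C in sham mice and for the interaction stayed at 0. Of 608 comparisons of a named member under an alternative, 529 kept their side of the threshold, 68 lost the call and 11 gained it. For OBX in Lip-C mice the count of 2 members called became 4 with a pseudocount of 64 (20.2% of all genes called), 0 with no filter on low signals (9.54%), 0 with quantile normalization (18.3%), 4 with an intensity trend (21.8%), 6 in a fit of the 2 groups alone (14.1%) and 7 with both OBX arrays numbered 3 left out (22.9%), the last chosen after seeing the data. It ran from 0 to 7 over the fits that left out 1 array. Over those fits the count for OBX in both treatments ran from 5 to 12 (25.4% to 34.3% of all genes called). For OBX in Lip-O mice it ran from 2 to 3 (10.3% to 20.5%) and for Lip-C in both operations from 0 to 1 (0.616% to 1.89%). The median member difference for Lip-C in OBX mice ran from -0.14 to 0.10. The cause of these shifts was not tested.

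The labels do not say that replicate numbers pair the arrays, and the main fit did not use them. Deviations of arrays with the same number correlated at -0.03 to 0.33, over 0.1 in 11 of 18 pairs. Of 12 arrays, 11 correlated best with their own number, a hint of shared structure from the data and not the design. With the replicate number as a block, 8 members (7 higher, 1 lower) were called for OBX in Lip-C mice (21.99% of all genes called), 1 for Lip-C in OBX mice (Gins1, adjusted p = 0.0483; 0.33% of all genes) and 1 for Lip-C in both operations (Gins1, adjusted p = 0.0135; 1.78% of all genes). It called 4 members for OBX in Lip-O mice (21.8% of all genes) and 14 for OBX in both treatments (35.03%). The spread of the members between arrays of a group limits what 3 arrays can show, and no depth is known for array signals.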
